A study of Mus musculus with 13 samples.

Results

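The 10 apolipoprotein genes Apoa1, Apoa2, Apoa4, Apoa5, Apob, Apoc1, Apoc3, Apoe, Apoh and Apom were followed through 8 lists of ChIP-seq regions from Hepa 1-6 cells, a mouse hepatoma line. They were chosen by symbol from the 22367 protein-coding genes that the GENCODE M1 annotation of the mouse assembly mm9 places on the chromosomes of the lists. For each gene, the regions were sought at the promoter (the annotated 5′ end with 250 bp to either side), in the gene body (the gene outside that promoter) and within 20 kb to each side outside both. A region that reaches across these borders was counted in each of them.

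Apolipoproteins are the protein part of the particles that carry fat and cholesterol in blood, and the liver is a main source of them. ApoB forms the frame of very low density and low density lipoproteins, ApoA-I and ApoA-II that of high density lipoproteins, and ApoE is the ligand by which particles are taken up through receptors. KAP1, the product of Trim28, is a corepressor that zinc finger proteins bring to DNA and that is known for building H3K9me3, a mark of silenced chromatin. H3K27ac marks active promoters and enhancers, and H3K4me1 marks enhancers and the shoulders of promoters.

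Cells in standard culture gave the lists of KAP1 and of the marks H3K27ac, H3K4me1 and H3K9me3. The lists of RNA polymerase II (PolII), which reads protein-coding genes, and of RNA polymerase III (PolIII), which reads tRNA and other small RNA genes, came from transduced cells that were fixed after 5 days and carried an shRNA against KAP1 (Kap1 KD) or served as control. Per the labels the control was a plasmid with a control shRNA, whereas the study's methods name an empty vector. The labels speak of transfection as well as of transduction, and the methods add a selection with puromycin. Each of the 8 lists came from 1 library of this line, so no value has a replicate error and no test between conditions was possible.

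There were 12470 KAP1 peaks, 57562 H3K27ac regions, 74014 H3K4me1 regions and 66242 H3K9me3 regions. The PolII list held 5015 peaks in the control against 12862 under Kap1 KD, and the PolIII list 2772 against 431. How many reads stand behind a list is unknown, so a gene called in 1 condition only may reflect a difference in depth as well as in binding, and these cannot be told apart. Of 8 hepatocyte markers, 5 carried H3K27ac at the promoter (Alb, Afp, Trf, Hnf4a and Foxa2), against 20% of all genes, and 3 carried no region of any list (Ttr, Serpina1a and Foxa1), against 58.5%. Of 8 markers of other cells, H3K27ac covered the promoters of Vil1 and Col1a1, Cdx2 carried KAP1 with H3K9me3, and the other 5, among them Cd3e, Ptprc, Gfap and Myod1, had none.

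The sequences below cover the starts on which the results turn, from 250 bases before the start to 30 bases from it (280 bases, 5′ to 3′ on the strand of the gene, read from mm9), and the central 200 bases of a KAP1 peak. Apoe and Apoa2 are shown because their promoters carried regions, Apoa1 and Apob because theirs carried none, and Apoh because its annotated starts gave different results. Capitals mark any match, on either strand, to AGGTCA (a nuclear receptor half-site), CAAAGT (part of the HNF4 element), GTTAAT (an HNF1 half-site), TGTTTAC (a FOXA element), TATAAA (the core promoter element), CCAAT (bound by NF-Y) or GGGCGG (bound by Sp1), and a run in small letters holds none of them.
Apoe, chr7:20284486-20284765, minus strand: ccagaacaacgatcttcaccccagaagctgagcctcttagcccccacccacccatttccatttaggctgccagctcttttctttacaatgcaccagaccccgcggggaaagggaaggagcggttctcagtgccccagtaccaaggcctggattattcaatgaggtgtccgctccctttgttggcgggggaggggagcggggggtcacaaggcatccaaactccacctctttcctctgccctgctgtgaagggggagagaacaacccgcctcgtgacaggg
Apoa2, chr1:173154935-173155214, plus strand: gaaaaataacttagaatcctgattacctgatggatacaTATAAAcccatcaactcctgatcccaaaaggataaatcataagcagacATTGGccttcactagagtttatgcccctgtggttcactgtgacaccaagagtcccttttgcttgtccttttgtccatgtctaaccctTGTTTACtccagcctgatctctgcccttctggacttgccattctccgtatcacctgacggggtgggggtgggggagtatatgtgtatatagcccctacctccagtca
Apoa1, chr9:46036413-46036692, plus strand: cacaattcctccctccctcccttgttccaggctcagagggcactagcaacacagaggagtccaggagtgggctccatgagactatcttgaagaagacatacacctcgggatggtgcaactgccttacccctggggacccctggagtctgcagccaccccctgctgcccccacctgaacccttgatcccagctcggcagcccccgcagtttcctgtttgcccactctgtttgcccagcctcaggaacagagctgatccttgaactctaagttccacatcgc
Apob, chr12:7984204-7984483, plus strand: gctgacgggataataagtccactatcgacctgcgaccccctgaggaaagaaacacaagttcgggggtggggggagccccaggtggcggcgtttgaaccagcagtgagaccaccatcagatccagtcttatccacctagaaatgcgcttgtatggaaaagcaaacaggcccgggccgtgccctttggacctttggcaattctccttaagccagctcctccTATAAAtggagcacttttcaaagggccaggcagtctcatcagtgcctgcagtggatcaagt
Apoh at its upstream start, chr11:108204418-108204697, plus strand: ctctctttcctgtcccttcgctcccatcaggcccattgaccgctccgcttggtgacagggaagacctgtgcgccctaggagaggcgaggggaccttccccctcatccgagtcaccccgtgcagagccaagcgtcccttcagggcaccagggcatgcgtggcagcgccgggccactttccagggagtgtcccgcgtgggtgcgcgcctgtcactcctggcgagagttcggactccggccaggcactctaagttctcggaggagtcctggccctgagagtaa
Apoh at the start of its CCDS transcript, chr11:108256357-108256636, plus strand: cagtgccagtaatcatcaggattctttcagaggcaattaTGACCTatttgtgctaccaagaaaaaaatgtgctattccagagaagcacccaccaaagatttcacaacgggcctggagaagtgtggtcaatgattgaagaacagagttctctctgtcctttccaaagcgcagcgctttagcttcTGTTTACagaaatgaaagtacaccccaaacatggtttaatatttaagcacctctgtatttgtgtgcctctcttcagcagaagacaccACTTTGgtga
Centre of the KAP1 peak inside Apoh, chr11:108226620-108226819, plus strand: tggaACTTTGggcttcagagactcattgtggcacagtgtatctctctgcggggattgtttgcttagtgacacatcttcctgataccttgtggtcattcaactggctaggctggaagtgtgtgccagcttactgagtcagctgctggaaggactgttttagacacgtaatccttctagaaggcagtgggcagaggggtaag

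The promoter letters varied among the genes, and each motif was also counted over the same 280 bases of all 22367 promoters. TATAAA was found in 3 of the 10 (Apoa2, Apoa5 and Apob), against 13.0% of all promoters. In Apob it lay 31 to 26 bases before the start, where a TATA box usually sits, and in Apoa2 and Apoa5 it lay farther away. AGGTCA occurred in Apoc3 alone (13.7% of all), at 2 positions, and CAAAGT (13.4%) and GTTAAT (6.05%) in Apoa4 alone. TGTTTAC occurred in Apoa2 alone (2.97%), 77 to 71 bases before the start, as did CCAAT (36.8%). GGGCGG was held by 1 of the 10, Apoc1, against 42.2% of all promoters.

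The promoters of Apoe, Apoa1 and Apom and the upstream start of Apoh held no match to any of the 7 motifs. CpG pairs numbered between 1 (Apoa4) and 9 (Apob and Apoe) in 9 of the genes, below the median of 10 over all promoters, and 19 at the upstream start of Apoh. At the CCDS start of Apoh there were 3, with TGTTTAC 67 to 61 bases before the start, AGGTCA 211 to 206 bases before it and CAAAGT after it. These matches describe the letters and were not tested as binding sites.

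At the promoter, 7 of the 10 genes had no region of any list (Apoa1, Apoa4, Apoa5, Apob, Apoc1, Apoc3 and Apom), near the 58.5% of all protein-coding genes, and 4 of the 7 lie in the Apoa1 cluster. Apoe, the ligand for receptor uptake, was the exception with 5 lists at its promoter, a set held by 265 genes, itself included (1.18%). Apoa2, of high density lipoproteins, carried H3K4me1 only and was 1 of 677 such genes (3.03%). Apoh, a plasma glycoprotein that binds phospholipids, carried a Kap1 KD PolII peak only and was 1 of 780 such genes (3.49%).

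List by list, the promoter counts of the 10 genes stayed at 2 or fewer. KAP1 was at 1 promoter (Apoe), against 15.7% of all genes, and H3K27ac at 1 (Apoe), against 20%. H3K4me1 was at 2 (Apoa2 and Apoe), against 11.9%, and H3K9me3 at 0, against 5.24%. In these 4 lists from standard culture, Apoe was thus the only one of the genes with KAP1 or H3K27ac within its promoter window.

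PolII in the control was at 1 promoter (Apoe), against 13.1%, and under Kap1 KD at 2 (Apoe and Apoh), against 23.3%. Apoe had a peak in both conditions, as 12.4% of all genes did. Apoh had it under Kap1 KD and not in the control, as 10.9% of all genes did, and none of the 10 had it in the control only, against 0.733% of all genes. The Kap1 KD list is the longer, and with both lists cut to equal length Apoh no longer had the peak. A count of 1 in 10 is what these background shares give, and nothing particular to the apolipoprotein genes was read from it. PolIII was at none of the 10 promoters in either list, against 0.344% in the control and 0.134% under Kap1 KD.

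**Figure D1:**
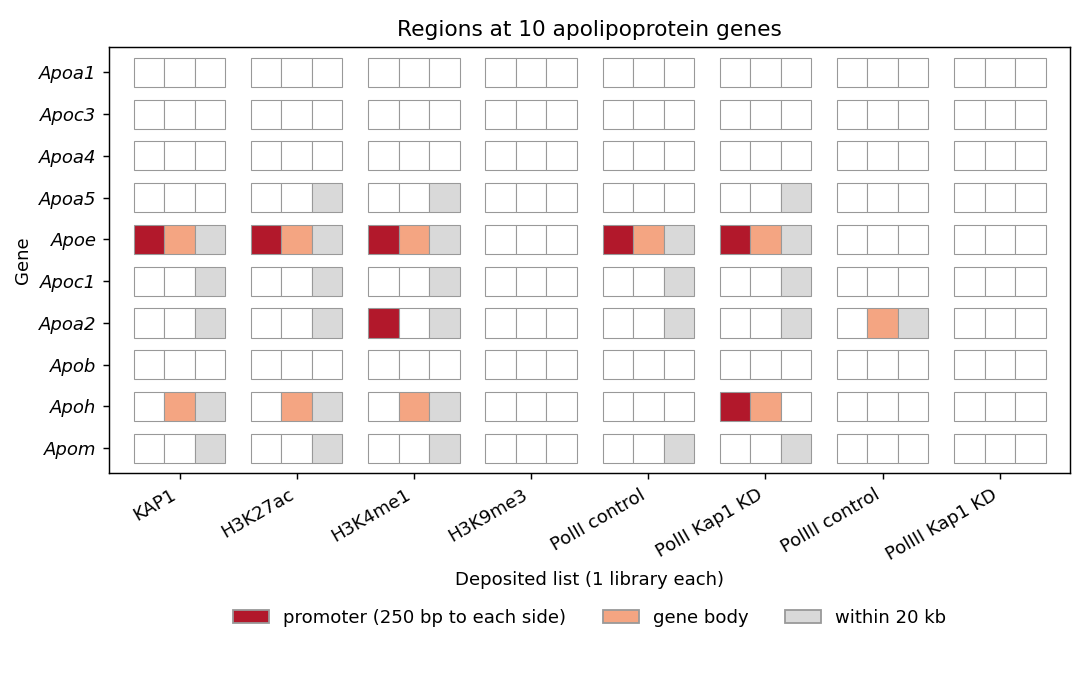
Presence of a region of each of the 8 lists (columns, 1 library each) at the 10 apolipoprotein genes (rows), with 3 boxes per cell for the promoter, the gene body and the 20 kb around, filled where at least 1 region overlaps. Apoe has 5 lists at its promoter, H3K9me3 and Kap1 KD PolIII are empty at all 10 genes, and the rows of Apoa1, Apoc3, Apoa4 and Apob are empty throughout.

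In the gene bodies, most calls again fell on Apoe and Apoh. KAP1, H3K27ac and H3K4me1 each lay in the body of 2 genes, Apoe and Apoh, against 23.7%, 41.0% and 50.5% of all genes, and H3K9me3 in that of none, against 23.2%. Control PolII was in 1 body (Apoe), against 14.9%, and Kap1 KD PolII in 2 (Apoe and Apoh), against 27.2%. Control PolIII was in 1 (Apoa2), against 3.51%, and Kap1 KD PolIII in none, against 0.572%. These background shares were lower among short genes. For H3K27ac, for example, the share was 25.4% among genes up to the median length of 15427 bp and 56.7% among longer ones, and for H3K9me3 it was 12.2% and 34.1%. Of the 10 apolipoprotein genes, 8 are between 1326 and 3287 bp long, with Apob at 39188 bp and Apoh at 71043 bp.

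Within 20 kb, the active marks were about as frequent as at all genes, and no H3K9me3 region was found. H3K27ac and H3K4me1 were each near 6 genes (Apoa2, Apoa5, Apoc1, Apoe, Apoh and Apom), against 55.6% and 62.6% of all genes. KAP1 was near 5 (the same without Apoa5), against 36.6%. H3K9me3 was near 0 of the 10, against 38.2%. The 10 genes lie at 6 places in the genome, since 4 share the Apoa1 cluster and 2 the Apoe cluster, and neighbours share their surroundings, so the 10 counts are not independent.

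Control PolII lay within 20 kb of 4 genes (Apoa2, Apoc1, Apoe and Apom), against 22.6%, and Kap1 KD PolII of 5 (these and Apoa5), against 37.3%. Control PolIII was near Apoa2 alone, against 5.47%, and Kap1 KD PolIII near none, against 1.61%. No region of any list touched the gene, promoter or 20 kb around for 4 of the 10 (Apoa1, Apoa4, Apob and Apoc3), against 12.3% of all genes. These 4 come from 2 places, the Apoa1 cluster and Apob.

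**Figure D2:**
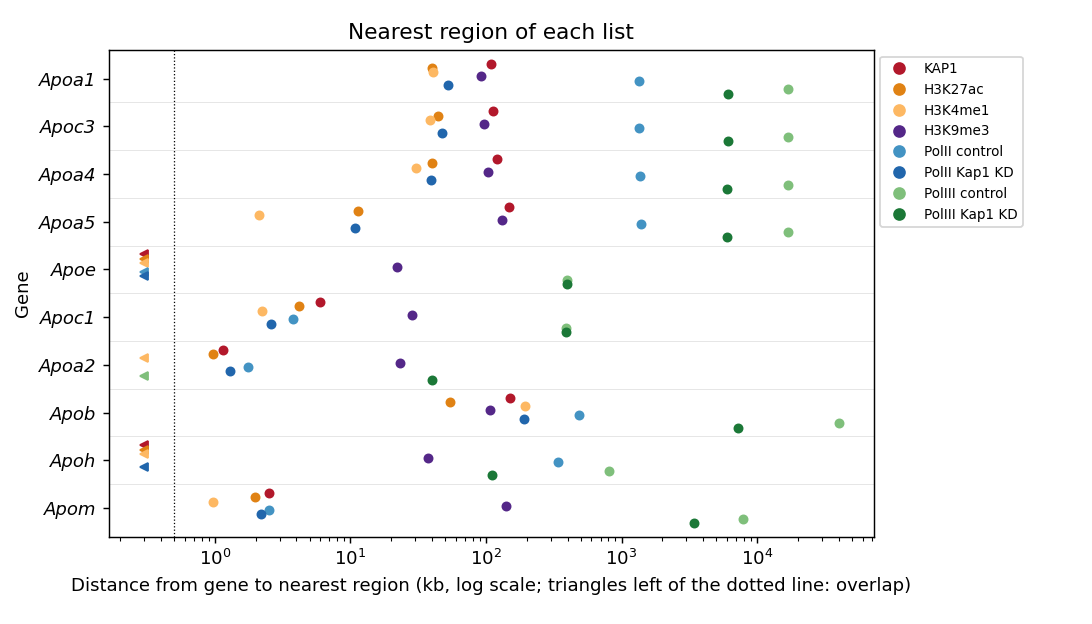
Distance from each of the 10 genes to the nearest region of each of the 8 lists, in kb on a log scale, with 1 coloured point per list and triangles left of the dotted line where a region overlaps the gene. H3K9me3 lies between 22.2 and 141 kb from every gene, and the points of Apob and of Apoa1, Apoc3 and Apoa4 all lie beyond 30 kb.

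The Apoa1 cluster on chromosome 9 holds Apoa1 (chr9:46036663-46038549), Apoc3 (chr9:46041016-46043719), Apoa4 (chr9:46048779-46051542) and Apoa5 (chr9:46076716-46080002), all in 43.3 kb. Apoc3 is read from the minus strand and the others from the plus strand. ApoA-I activates the enzyme that esterifies cholesterol in high density lipoproteins, ApoC-III slows the clearance of triglyceride-rich particles, and ApoA-V promotes it. Across this span all 8 lists were empty, so neither an active mark, nor H3K9me3, nor KAP1, nor a polymerase was called over any of the 4 genes.

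The empty stretch was longer than the cluster. It ran for 85.1 kb, from an H3K27ac region in Sik3, a kinase gene upstream, that ends at 45996993 to an H3K4me1 region in Zfp259 that starts at 46082131. The nearest KAP1 peak was 108 kb from the cluster and the nearest H3K9me3 region 91.7 kb, both inside Sik3. Apoa1 was 39.7 kb from the nearest region of any list, and 93.6% of all genes had one nearer, while Apoc3 was 38.4 kb and Apoa4 30.6 kb away. Apoa5, at the other end, had H3K4me1 at 2.13 kb.

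Under Kap1 KD the nearest PolII peak to the cluster was 10.8 kb past Apoa5, over the promoter of Bud13, a splicing factor gene (chr9:46090771-46091177, 407 bp, score 28, rank 9923 of 12862). Here and below, the score is the whole number that the authors' list gives each polymerase peak. In the control, no PolII peak lay nearer than 1346 kb, but the Bud13 peak is not among the 5015 highest-scoring Kap1 KD peaks, the length of the control list. Peaks of the PolII lists are numbered in genome order, and no number was missing across the cluster in either list, so no call there had been dropped before deposit by this measure.

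**Figure D3:**
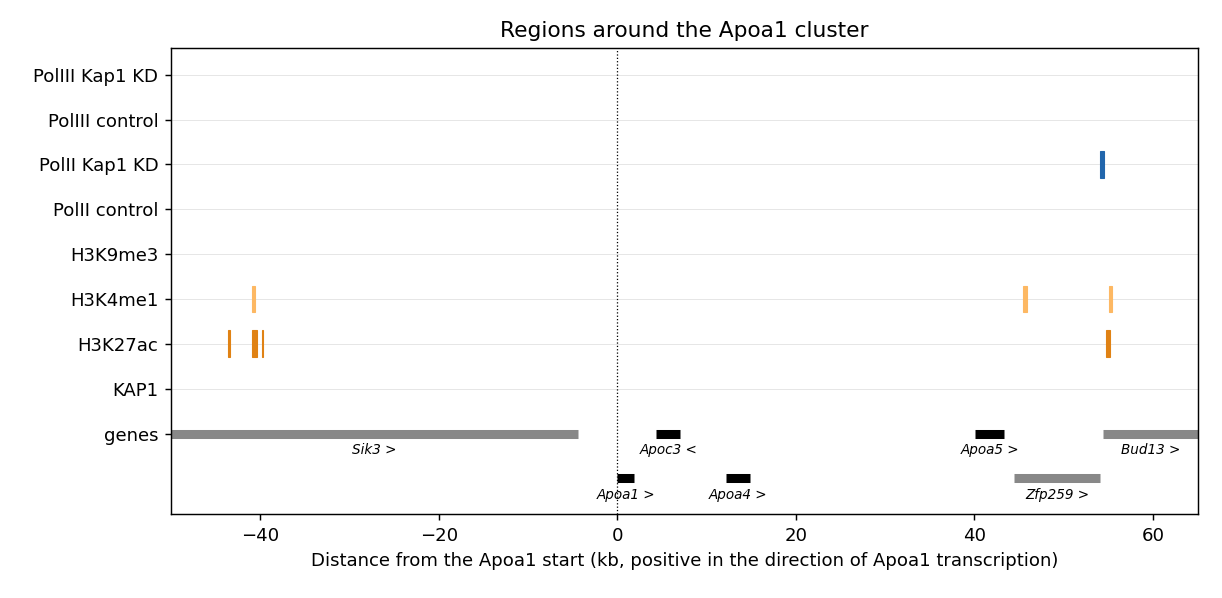
Regions of the 8 lists (rows, coloured bars drawn to scale) from 50 kb before to 65 kb after the Apoa1 start, which is the dotted line, with the apolipoprotein genes in black, their neighbours in grey, and arrows for the direction of transcription. All rows are empty over the 4 genes, and regions appear in Sik3 to the left and in Zfp259 and Bud13 to the right.

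Apob (chr12:7984454-8023641, plus strand), the frame protein of low density lipoproteins, lay in the longest empty stretch of the 10, 245 kb between a KAP1 peak that ends at 7833565 and an H3K27ac region that starts at 8078076. Its nearest region of any list was 54.4 kb away, and 95.8% of all genes had one nearer. KAP1 was 151 kb away, H3K9me3 107 kb, Kap1 KD PolII 191 kb and control PolII 482 kb. Mttp, which loads lipid onto ApoB, was different, with KAP1, H3K27ac and PolII in both conditions at its promoter.

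Apoe (chr7:20281458-20284515, minus strand) carried a KAP1 peak across its start (chr7:20284013-20284987), from 472 bp before to 502 bp after it. The peak covered all of the promoter. Of its bases, 193 fell in exons and 310 in introns of the annotated transcripts. Its score of 53.44 ranked 11751 of 12470, and 5.72% of KAP1 peaks scored lower, the lowest score of the list being 50.02. The peak was thus among the weakest that the authors kept.

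The active marks lay beside the centre of that KAP1 peak, not on it. H3K27ac stretched from 524 to 129 bp before the start and again from 262 to 857 bp and from 1136 to 2338 bp after it, and left a gap of 390 bp around the peak centre. H3K4me1 lay farther out, from 1853 to 152 bp before the start and from 2898 to 4264 bp after it. Of all KAP1 peaks that H3K27ac touched, 32.6% were flanked on each side in this way, 37.1% had the centre covered and 30.3% had H3K27ac on 1 side only. Flanked peaks are therefore common, and 3 of the 6 KAP1 peaks near the 10 genes were of this kind (Apoe, the intron of Apoh, and Bag6 beside Apom).

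In the control, a PolII peak covered 2677 bp of Apoe, from 61 to 2737 bp after the start, with a score of 113 (rank 636 of 5015). A further control peak of 1022 bp and score 43 lay 2039 to 1018 bp before the start. Under Kap1 KD a single peak of 7704 bp and score 403 (rank 415 of 12862) reached from 3786 bp before to 3917 bp after the start and overlapped both. Of the 4289 Kap1 KD peaks that overlapped a control peak, 145 (3.38%) overlapped 2 or more.

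The Apoe peak was 2.88 times as wide under Kap1 KD as the control peak at the promoter, against a median of 1.34 (quartiles 1.03 and 1.94) over the 2777 genes with a promoter peak in both conditions, 89.2% of which had a smaller ratio. Against the 4777 bp span of both control peaks it was 1.61 times as wide, where the same measure had a median of 1.29 (quartiles 1.02 and 1.82) and 67.6% of genes had a smaller ratio, so the size of the excess rests on which control peaks are counted. Its score was 3.57 times that of the control peak at the promoter, against a median of 2.06, with 89.8% smaller. The medians above 1 show that widths and scores differed between the libraries at most of these 2777 genes, though the scores have no common scale. The excess at Apoe was not tested, with 1 library in each condition.

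**Figure D4:**
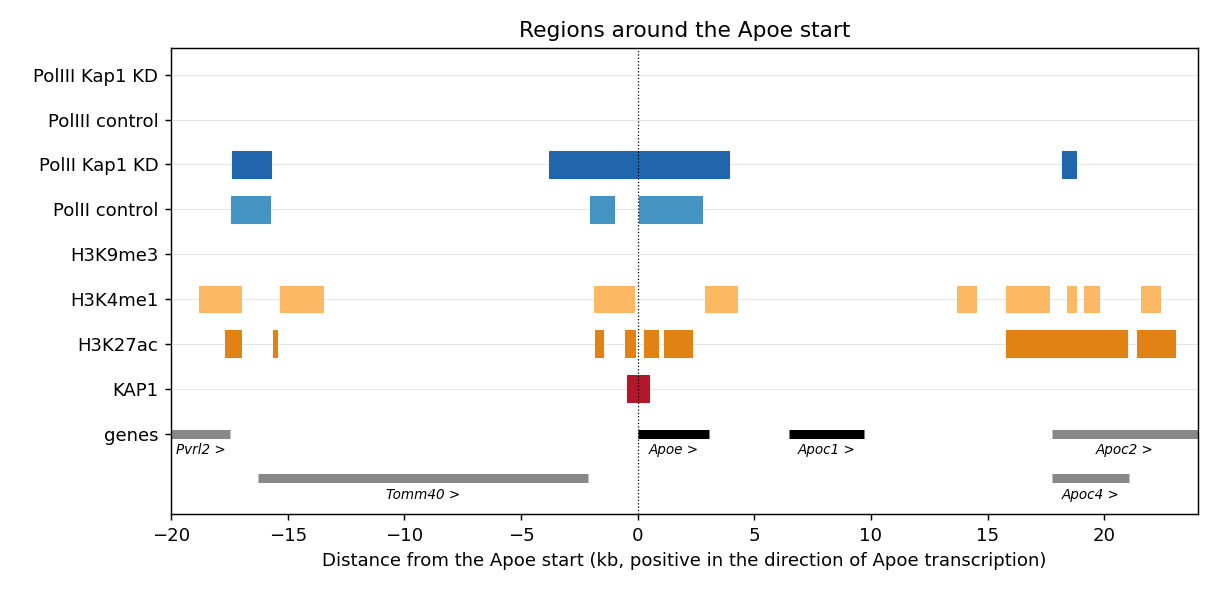
Regions of the 8 lists (rows, coloured bars drawn to scale) from 20 kb before to 24 kb after the Apoe start, which is the dotted line, with the apolipoprotein genes Apoe and Apoc1 in black and other genes in grey. KAP1 spans the start with H3K27ac on each side, the Kap1 KD PolII bar of 7704 bp spans both control bars beside the start, and the rows over Apoc1 are empty.

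Apoc1 (chr7:20274833-20278007, minus strand), whose protein inhibits lipoprotein uptake and lipid transfer, is the next gene after Apoe in the same direction. No region overlapped it. H3K4me1 was 2.24 kb away, Kap1 KD PolII 2.59 kb, control PolII 3.77 kb, H3K27ac 4.17 kb and KAP1 6.01 kb, and each of these regions lay over Apoe or touched its ends. Over the 9.68 kb from Apoe through Apoc1, KAP1 covered 5.19%, H3K27ac 18.6%, H3K4me1 14.1%, control PolII 27.6% and Kap1 KD PolII 40.5%. H3K9me3 and both PolIII lists covered none of it, and the nearest H3K9me3 region was 22.2 kb away in Pvrl2.

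Apoh (chr11:108204668-108275710, plus strand) gave different results by start. Its 5′-most start belongs to a transcript outside the CCDS set and lies inside the first part of Prkca, a kinase gene on the opposite strand that begins close by. The Kap1 KD PolII peak (chr11:108204897-108205433, 537 bp, score 38, rank 7945 of 12862) lay 229 to 765 bp after this start, shared 22 bp with the promoter of Apoh, and overlapped the promoter of Prkca too. Which of these genes it belongs to cannot be told apart. The CCDS transcript starts at 108256607, close to the coding start that all 4 transcripts share at 108256658, and no region of any list lay there.

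Inside an intron of Apoh, more than 20 kb after the upstream start, a KAP1 peak (chr11:108226225-108227215, score 62.73, rank 10187) was flanked on each side by H3K27ac, with a gap of 399 bp, and by H3K4me1, with a gap of 660 bp. A Kap1 KD PolII peak of 826 bp and score 50 (chr11:108225911-108226736, rank 6147 of 12862) overlapped it. The control list had no PolII peak over Apoh, the nearest lying 337 kb away, and no number of that list was missing around its promoter. Neither Kap1 KD peak of Apoh is among the 5015 highest-scoring peaks of its list, the length of the control list. The central 200 bases of this KAP1 peak, printed above, held 1 CAAAGT match. All of these regions were intronic in every annotated transcript that spans them.

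**Figure D5:**
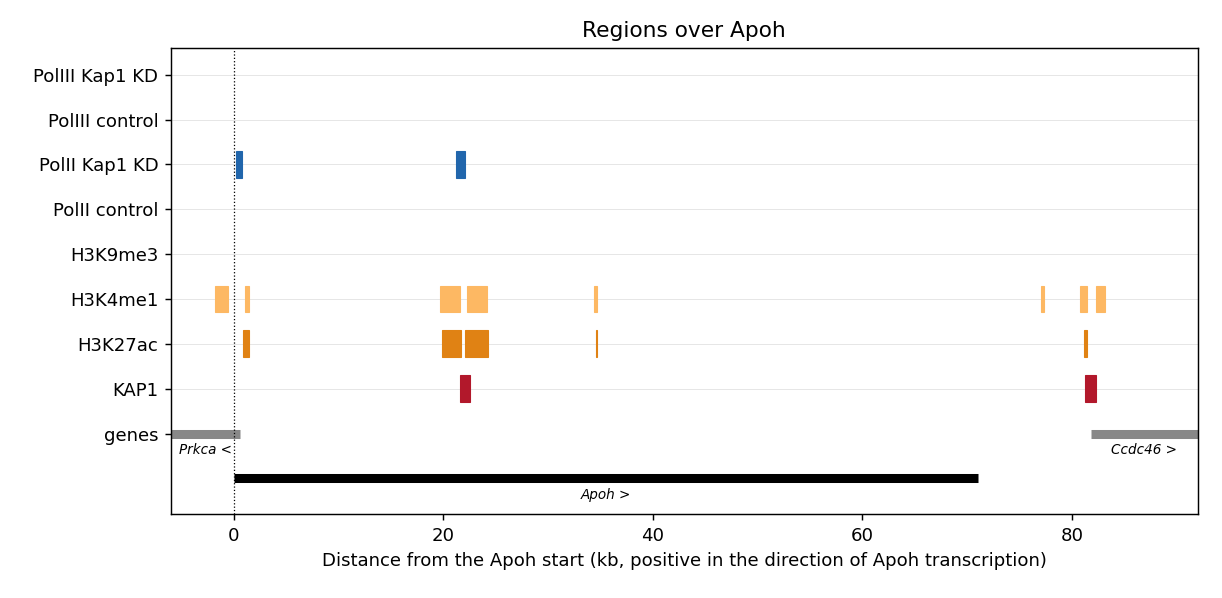
Regions of the 8 lists (rows, coloured bars drawn to scale) from 6 kb before to 92 kb after the upstream Apoh start, which is the dotted line, with Apoh in black and Prkca and Ccdc46 in grey. KAP1, H3K27ac, H3K4me1 and Kap1 KD PolII meet at an intronic site, and the control PolII and H3K9me3 rows are empty.

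Apoa2 (chr1:173155185-173156510, plus strand) had H3K4me1 over its start, from 629 bp before to 179 bp after it, with H3K27ac no nearer than 971 bp. The closest KAP1 peak was 3500 bp wide (score 110.45), lay 4655 to 1156 bp before the start and covered the promoter of Tomm40l, an import receptor gene of mitochondria. PolII was called at Tomm40l in both conditions, with a score of 43 in the control and 93 under Kap1 KD. In the control list, PolII was also called at the promoter of Fcer1g, an immunoglobulin receptor subunit (score 38). The Kap1 KD list held no peak there, but 1 peak number was missing from it in the 18.4 kb stretch that holds the Apoa2 and Fcer1g promoters, so a call may have been removed before deposit. A Kap1 KD PolII peak of 2499 bp and score 120 lay 8705 to 6207 bp before the Apoa2 start, within Nr1i3 and Tomm40l, without a control counterpart.

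Apoa2 was the only one of the 10 with PolIII in reach. A control PolIII peak of 898 bp and score 29 ran from 540 to 1437 bp after the start, and 5 more lay within 20 kb of the gene or reached into that span, the widest at 15004 bp and score 264. Kap1 KD PolIII had none nearer than 39.7 kb. The control PolIII list is unevenly spread over the genome, and this goes with the chromosome. On chromosomes 1 to 4 it had a peak in the body of 13.0% of genes (716 of 5495), and on the others in 0.409% (69 of 16872), so the Apoa2 peak stands on a chromosome where such peaks are frequent.

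Apom (chr17:35265942-35268995, minus strand), a carrier of sphingosine 1-phosphate in high density lipoproteins, had no region over the gene or its promoter, though its neighbours did. H3K4me1 was 0.964 kb away and H3K27ac 1.99 kb. A KAP1 peak with a score of 183.8 (rank 3237 of 12470), flanked by H3K27ac with a gap of 676 bp, lay 3786 to 2500 bp before its start, over the promoter of the chaperone gene Bag6. PolII was called there in both conditions, with scores of 58 and 95. On the other side, a KAP1 peak with a score of 142.63 covered the promoter of Csnk2b, a kinase subunit. A Kap1 KD PolII peak of score 51 lay 5508 to 6593 bp after the Apom start and overlapped the promoters of D17H6S53E and Gm20522. It had no control counterpart. At rank 6016 of 12862 it is not among the 5015 highest-scoring Kap1 KD peaks, the length of the control list.

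The other genes of lipoprotein metabolism were read from 4 lists with 36 genes in all. Of these, 17 (47.2%) had no region of any list at the promoter, against 58.5% of all genes. H3K27ac was at 14 (38.9%, against 20% of all), H3K4me1 at 8 (22.2%, against 11.9%) and KAP1 at 5 (13.9%, against 15.7%). Control PolII was at 4 (11.1%, against 13.1%) and Kap1 KD PolII at 10 (27.8%, against 23.3%). H3K9me3 and both PolIII lists were at none of the 36, as at none of the 10 apolipoprotein genes. Over all genes the shares were 5.24% for H3K9me3, 0.344% for control PolIII and 0.134% for Kap1 KD PolIII. At such shares, sets of this size hold few or none. KAP1 was at Mttp, at P4hb, the small subunit of the Mttp complex, at Sar1b, which moves lipoproteins out of the endoplasmic reticulum, and at the receptors Lrp1 and Scarb1.

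PolII was at 6 of the 36 (16.7%) under Kap1 KD and not in the control, against 10.9% of all genes, and at none in the control only, against 0.733%. They included Clu, an apolipoprotein also called ApoJ, Apobec1, which edits the Apob message, Sar1b, and the receptors Lrp1 and Lrp8. Mttp, P4hb, Angptl4, an inhibitor of lipoprotein lipase, and Abca1, which exports cholesterol to ApoA-I, had PolII in both conditions. By group, no region was found at the promoter of 4 of 8 other apolipoproteins, 4 of 9 genes of assembly and secretion, 2 of 9 of receptors and uptake and 7 of 10 of lipases and remodelling. Over all genes the share was 58.5%. The groups are small, and differences between them were not tested.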

How the data were processed

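The deposited files were 8 lists of regions from 13 samples, and the 5 input samples were not analysed here. Per the methods of the study, the authors aligned reads to mm9 with Bowtie and used MACS, with total input as background, for KAP1 and PolII, and ChIP-Part for the histone marks. The PolIII caller is not given in the sources used here. The KAP1 and polymerase lists as deposited by the authors carry a score for each peak, which served to rank peaks within a list and, for PolII, is also set side by side between conditions, where it has no common scale, and the histone mark lists hold positions only. Between 22.6% and 55.0% of the peak numbers were missing from each polymerase list, so calls had been removed before deposit.

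Positions were joined to GENCODE M1 on mm9 (NCBIM37) with Python 3.11.15 and numpy 2.4.6, counting from 1 and requiring an overlap of 1 bp. The overlap code was tested on simulated data. With 1 library per group there was no test, and peak calls give no counts, so depth and precision are unknown. Exons are those of any annotated transcript of a gene. All 10 apolipoprotein genes were named, as were genes of 4 pathway lists with KAP1, H3K9me3 or PolIII at the promoter or PolII there in 1 condition only, and genes within 20 kb of a cluster with a region at the promoter. Marker genes, Angptl4, Abca1 and the other neighbours were named beside the result they touch, with their values seen. Some genes that fall under these rules are not reported here. The genes, lists and motifs were chosen with earlier results of these data known. The alternatives changed the promoter width, overlap, score, transcript start, flank and cluster span. Figures were drawn with matplotlib 3.10.9.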

Additional observations from a re-analysis of the deposited data

How the results depend on the processing

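Of 103 alternatives over the counts and cluster shares, 81 kept the count or share within 1.5 times its value and 22 moved it further, namely 8 of 46 for promoters, 0 of 16 for gene bodies, 2 of 17 for the 20 kb around and 12 of 24 for clusters. Counts and shares of 0 that stayed at 0 were among those kept, and there the ratio says little. For clusters, the only kept share above 0 was that of H3K27ac with 20 kb around the Apoe cluster (20.5% against 18.6%). With peaks at or above the median score, the genes with KAP1 at the promoter fell from 1 to 0, and those with Kap1 KD PolII from 2 to 1. The latter was also 1 with an overlap of at least 100 bp, with PolII lists cut to equal length (5015 peaks), and from the start of the CCDS transcript, the last chosen after seeing the data. In each of these the Apoh promoter was lost. An overlap of 100 bp left 1 gene with H3K4me1 (Apoa2). With 1000 bp to each side, 3 genes had H3K27ac (Apoe, Apoa2 and Apoh, against 35.2% of all genes) and 1 had control PolIII (Apoa2, against 0.630%). Within 50 kb, 4 genes had H3K9me3 (against 61.6% of all genes) and 1 had Kap1 KD PolIII (3.30%), while H3K27ac and H3K4me1 were each near 9 genes in place of 6 (71.4% and 76.0%) and Kap1 KD PolII near 7 in place of 5 (51.3%). With the promoter counted as part of the gene, H3K4me1 lay in 3 genes in place of 2 (51.3%). Leaving out control PolIII peaks wider than 10 kb, also chosen after seeing the data, left the count of genes with control PolIII within 20 kb at 1. With 20 kb to each side of the Apoa1 cluster, H3K27ac covered 0.56%, H3K4me1 0.917% and Kap1 KD PolII 0.488%. Over the Apoe cluster with 20 kb to each side, KAP1 covered 1.96%, H3K4me1 22.6%, control PolII 11.8% and Kap1 KD PolII 20%, and over the span extended to Apoc4 and Apoc2, KAP1 covered 1.82%, H3K27ac 31.3%, H3K4me1 21.3%, control PolII 11.4% and Kap1 KD PolII 16.3%. The width ratio of PolII at Apoe was 1.61 in place of 2.88 against the span of both control peaks, also chosen after seeing the data. No paired analysis was possible because the result comes from no test and each group holds 1 library. The absence of a region is limited by a depth that is unknown.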

Other observations

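Past Apoc1, the next genes of the Apoe cluster were marked differently from Apoc1 itself. Apoc2, the activator of lipoprotein lipase, and Apoc4 start within a few bases of each other, and an H3K27ac region of 5209 bp (chr7:20263524-20268732) covered both promoters, and an H3K4me1 region overlapped them. No KAP1, H3K9me3 or polymerase peak lay over either promoter. A Kap1 KD PolII peak of 578 bp and score 32 (chr7:20265744-20266321) lay inside both genes, and a control PolII peak of 455 bp and score 23 lay farther inside Apoc2.

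Upstream of Apoe, PolII was called in both conditions at the promoter of Tomm40, the import pore gene of mitochondria, with scores of 63 and 112 and widths of 1707 and 1669 bp. Beyond Tomm40, the promoter of Pvrl2, a cell adhesion gene, carried KAP1 without an active mark or PolII, 50.1 kb from Apoe. The Ccdc46 promoter past Apoh also carried a KAP1 peak (score 57.07), with no PolII in either condition.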
